A study of Rattus norvegicus with 6 samples.

Results

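The extracellular matrix genes Sparc, Sparcl1, Spp1, Mgp, Fn1 and Eln were followed in the rat prostate under diets with much or little corn oil. All probe sets annotated to these 6 genes were taken, which gave 13 probe sets among the 4736 genes named on the array. Sparc had 4 probe sets, Fn1 had 5, and each of the other 4 genes had 1. The genes were chosen by name with the measured high minus low diet differences of these arrays known, among them the lower values of Sparcl1 under the high diet. Their own diet differences are therefore a description and support nothing further.

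The tissue was the dorsolateral prostate of male ACI rats, an inbred strain, labelled 18 months old, and total RNA from each animal was hybridized to its own short-oligonucleotide array. The high corn oil group held 3 rats kept for 18 months on a diet with much corn oil, a vegetable fat rich in linoleic acid. The low corn oil group held 3 rats kept as long on a diet with little of it, which the series' design text calls the control diet. Rats are named below by diet and replicate number. The array of high-diet rat 3 has a free-text description that names the low diet, while its title and source name give the high diet. The 3 arrays per diet limit the precision of every value.

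Values are the deposited intensities, in linear units that can fall below 0. After removal of control probe sets the array medians ran from 573 to 711 under the high diet and from 593 to 634 under the low diet, and 18.8% to 23.1% and 18.5% to 20.2% of the values were at or below 0. The arrays split 2 against 4. High-diet rats 2 and 3 had a Spearman correlation of 0.932 with each other and of 0.857 to 0.897 with the other 4 arrays, while high-diet rat 1 had correlations of 0.927 to 0.950 with the low corn oil arrays. Bacterial control RNAs (BioB, BioC and BioD) are added to each hybridization, and their 7 probe sets averaged 16858, 6098 and 9008 in the high corn oil rats, against 20865, 15249 and 8365 in the low corn oil rats (geometric means; log2 difference -0.51, exact two-sided permutation p = 0.5). This spike-in signal was thus high for 1 rat of the high diet and 2 of the low diet, and the spike-in levels were compared separately where they matter. High-diet rat 1 is the only high-diet array at the high level, and low-diet rat 3 the only low-diet array at the low level. Differences between the levels therefore cannot be told apart from differences of these single animals. Of the luminal epithelial markers that identify prostate tissue, 7 of 9 were on the array, and none of these 7 was at or below 0 on any array.

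Matricellular proteins are secreted into the matrix and regulate how cells attach to it, without being its main structural fibres. In the matrix SPARC, also called osteonectin, binds collagen and calcium, and SPARC-like 1, also called hevin, is its closest relative and shares its follistatin-like and calcium-binding domains. Osteopontin (Spp1) is a secreted integrin and CD44 ligand made by macrophages and epithelia. Matrix Gla protein (Mgp) is a vitamin K-dependent inhibitor of calcification. Fibronectin (Fn1) links cells to the matrix through integrins, and elastin (Eln) forms the elastic fibres. In the human prostate, loss of SPARCL1 has been described in aggressive tumours.

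Sparc and Sparcl1 are set apart first, since they are related and lay on opposite sides of 0 in the diet comparison. Sparc lies on chromosome 10 and Sparcl1 on chromosome 14 of the rat. The sequences around their annotated starts, 250 bases before and 50 after, are shown because the levels of these relatives differed in direction. They come from RefSeq on the GRCr8 build, at chr10:40038767-40039066 on the minus strand for Sparc and at chr14:5937234-5937533 on the plus strand for Sparcl1. Both are written 5′ to 3′ along the gene, with matches to the motifs searched in capitals.
Sparc: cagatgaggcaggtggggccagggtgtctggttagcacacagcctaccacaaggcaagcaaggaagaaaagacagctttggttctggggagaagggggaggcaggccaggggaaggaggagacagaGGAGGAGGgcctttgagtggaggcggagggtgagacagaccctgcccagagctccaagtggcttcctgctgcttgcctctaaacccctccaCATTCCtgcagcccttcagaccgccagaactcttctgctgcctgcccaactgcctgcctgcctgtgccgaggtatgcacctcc
Sparcl1: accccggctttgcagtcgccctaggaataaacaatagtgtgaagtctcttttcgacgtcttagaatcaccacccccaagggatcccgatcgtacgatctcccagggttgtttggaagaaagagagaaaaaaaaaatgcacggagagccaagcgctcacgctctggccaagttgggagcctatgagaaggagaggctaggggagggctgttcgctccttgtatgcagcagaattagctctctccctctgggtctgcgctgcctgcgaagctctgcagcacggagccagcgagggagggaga

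On either strand, 6 motifs were searched. Sparc held 1 GGA repeat, GGAGGAGG, starting 124 bases before the annotated start, and 1 MCAT element, CATTCC, starting 33 bases before it. Among 33469 rat promoter windows of the same length, 8.39% held the GGA repeat and 14.2% the MCAT element. Sparcl1 held none of the motifs. The TATA box TATAAA, the CCAAT box CCAAT, the GC box GGGCGG and the AP-1 site TGANTCA were in neither window, and were in 14.2%, 37.5%, 33.1% and 7.33% of all windows. The windows were 61% G and C for Sparc and 55% for Sparcl1, against a median of 51.7%. A missing match says only that these letters are not in this window. Of the 6 genes, 3 had a window in the table.

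Sparcl1 (probe set U27562_at) was lower in all 3 high corn oil prostates than in any low corn oil prostate. Its intensity was 6722, 7489 and 6005 in the high corn oil rats, against 14658, 11604 and 9527 in the low corn oil rats. The mean was 6739 ± 742 under the high diet and 11929 ± 2581 under the low diet (SD, n = 3 each), a ratio of 0.565. The values of the diets did not overlap, and the gap lay between 7489 in high-diet rat 2 and 9527 in low-diet rat 3. On the scale log2(intensity + 156.1), used for all differences below, the high minus low difference was -0.79 ± 0.19 (SE, limma), lower than all but 5.76% of the 5244 tested probe sets. It was -0.94 at the high and -0.50 at the low spike-in level, and -0.79 without high-diet rat 1. With high-diet rat 3 moved to the low diet, as its description has it, the difference was -0.48 and the diets overlapped. In tissue RNA, fewer cells of a type and less RNA per cell cannot be told apart.

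Sparc was higher in most high corn oil prostates, but its probe sets did not tell one story. The brightest, rc_AA892248_at, read 23909.9, 29243 and 32507 in the high corn oil rats, against 11561, 14797 and 32452 in the low corn oil rats. Here 2 low corn oil arrays were dim and low-diet rat 3 was as bright as the brightest high corn oil array. The next, Y13714_at, read 7572, 15851 and 19088 in the high corn oil rats, against 8709.5, 6778 and 8121 in the low corn oil rats. The values of rc_AA946313_s_at were 2780.4, 8416 and 7649 in the high corn oil rats, against 3292, 3445 and 3805 in the low corn oil rats. The dimmest, rc_AA891204_s_at, read 1713, 4019 and 4538.5 in the high corn oil rats, against 2880.2, 2529 and 2317 in the low corn oil rats. In these last 3 probe sets high-diet rats 2 and 3 were above every low corn oil array, while high-diet rat 1 was within or below the low range. In all 4 the diets overlapped. High-diet rats 2 and 3 are the pair of arrays set apart from the other 4, and they were also the lowest for the luminal secretory gene Pbsn (probasin, M27156_at), at 99574, 19851 and 21926 in the high corn oil rats, against 78113, 82039 and 81437 in the low corn oil rats. The other tested Pbsn probe set, M27156_g_at, was also lowest in these 2 rats but differed by -0.28 ± 0.24 (SE, limma), against -1.19 ± 0.57. It read 61062, 32500 and 37102 in the high corn oil rats, against 49692, 49448 and 53756 in the low corn oil rats. The summed luminal marker intensities of high-diet rats 2 and 3 were 161023 and 153370. These sums were 295052 in high-diet rat 1 and 248570 to 274117 in the low corn oil rats. Pbsn is part of these sums. Of the other luminal markers, Msmb and Krt18 were also lowest in these 2 rats, while Krt8, Krt19, Epcam and Tgm4 were not lowest in both. Epcam read 18308 and 15816 in high-diet rats 2 and 3, against 12239 to 15141 in the low corn oil rats. The part of this pattern in the Sparc values, and in those of Tnc below, was not tested.

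The high minus low differences of the Sparc probe sets, in the order above, were 0.67 ± 0.36, 0.74 ± 0.33, 0.67 ± 0.39 and 0.29 ± 0.35 (SE, limma). The disagreement was sharpest within spike-in levels. At the high spike-in level rc_AA892248_at differed by 0.86 and Y13714_at by -0.02, rc_AA946313_s_at by -0.26 and rc_AA891204_s_at by -0.61. At the low level the first differed by -0.07 and the others by 1.08, 1.05 and 0.84. Across the 6 arrays, as a description, rc_AA892248_at followed the other 3 with Pearson r of 0.55, 0.57 and 0.25 (Spearman rho 0.54, 0.66 and 0.31). The other 3 followed each other with r of 0.89 to 0.94 (rho 0.66 to 0.83). The 4 probe sets share the same 6 RNA samples, so these are not independent measurements.

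No Sparc probe set passed the test with all 6 arrays. Without high-diet rat 1, the high-diet array in which 3 of the 4 were not raised, Y13714_at differed by 1.14 (limma adjusted p = 0.0263) and rc_AA946313_s_at by 1.16 (limma adjusted p = 0.0219), when 4.08% of all tested probe sets were called, 1.51% as higher. The other 2, rc_AA892248_at and rc_AA891204_s_at, did not pass there (limma adjusted p = 0.280 and 0.0741). That comparison sets 2 high-diet arrays of low spike-in signal against low-diet arrays of which 2 had high signal. It leaves out the high-diet array in which these probe sets were not raised, so passing there is a description and no test. Without high-diet rat 2 the limma adjusted p of Y13714_at and rc_AA946313_s_at was 0.723 and 0.806. Without high-diet rat 3 it was 0.855 and 0.859. If high-diet rat 3 is taken as a low-diet rat, the 4 differences were 0.36, 0.16, 0.18 and -0.16. Over the fits that left out 1 array, rc_AA892248_at ranged from 0.37 without low-diet rat 1 to 1.11 without low-diet rat 3. Y13714_at was lowest without high-diet rat 3, at 0.48, and rc_AA946313_s_at without high-diet rat 2, at 0.39. The range of rc_AA891204_s_at was 0.037 without high-diet rat 3 to 0.70 without high-diet rat 1.

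Set against Sparcl1 within each array, every Sparc probe set was relatively higher under the high diet. The within-array log2 difference of rc_AA892248_at and Sparcl1, taken relative to its low corn oil mean, was 1.22, 1.36 and 1.82 in the high corn oil rats, against -0.93, -0.24 and 1.17 in the low corn oil rats. The diets were separated by a narrow margin, 1.22 in high-diet rat 1 against 1.17 in low-diet rat 3. For Y13714_at the values were 0.74, 1.64 and 2.22 in the high corn oil rats, against -0.16, -0.19 and 0.35 in the low corn oil rats. For rc_AA946313_s_at and rc_AA891204_s_at the margins were also narrow, with the lowest high corn oil rat at 0.47 and 0.25, against the highest low corn oil rat at 0.41 and 0.16. The high minus low contrast was 1.47, 1.54, 1.46 and 1.08 for the 4 Sparc probe sets. Its size differed between the spike-in levels, with 1.80, 0.92, 0.68 and 0.33 at the high level and 0.42, 1.58, 1.54 and 1.34 at the low level. Spike-in signal and single animals cannot be told apart here, since the high level rests on high-diet rat 1 and the low level on low-diet rat 3. These contrasts contain the Sparcl1 difference, which was known when the genes were listed, and they were not tested. They compare differences between diets, not the level of one gene with that of the other.

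**Figure D1:**
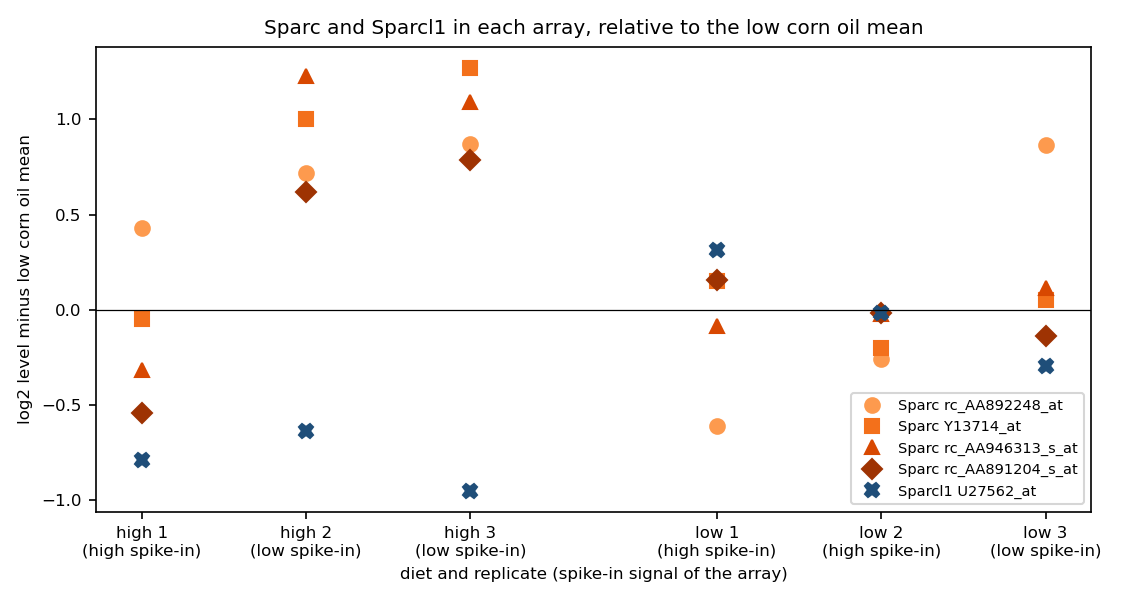
Log2 level of each Sparc and Sparcl1 probe set minus its low corn oil mean (vertical axis), for each array (horizontal axis, with the spike-in signal of the array). Sparcl1 lies below 0 in all 3 high corn oil arrays, while 3 of the 4 Sparc probe sets lie above 0 only in high-diet rats 2 and 3 among them, and rc_AA892248_at is also high in low-diet rat 3.

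Mgp (rc_AI012030_at), the calcification inhibitor, was the brightest of the 6 genes' probe sets and varied little within a diet. It read 30199, 34783 and 33563 in the high corn oil rats, against 41312, 42729 and 46031 in the low corn oil rats. The means were 32848 ± 2374 under the high diet and 43357 ± 2421 under the low diet (SD, n = 3 each), a ratio of 0.758. The diets did not overlap. The difference was -0.40 ± 0.13 (SE, limma), with 32.1% of the tested probe sets further from 0. It was -0.47 at the high and -0.43 at the low spike-in level, -0.34 without high-diet rat 1 and -0.32 with high-diet rat 3 moved to the low diet.

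Spp1 (M14656_at) was the only tested probe set of the 6 genes to be higher in every high corn oil rat. It read 725, 3226 and 724 in the high corn oil rats, against 389, 538 and 264 in the low corn oil rats. The means were 1558 ± 1444 under the high diet and 397 ± 137 under the low diet (SD, n = 3 each), a ratio of 3.92. One animal, high-diet rat 2, carried most of that ratio, and the other high corn oil rats were close to each other and just above the highest low corn oil rat. The difference was 1.35 ± 0.55 (SE, limma), and 0.70 without high-diet rat 2. It was 0.52 at the high and 2.04 at the low spike-in level. The signal is dim, so the fold depends on the added constant, with 0.91 for a constant 4 times as large.

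Fn1 gave different answers by probe set. The brightest, X05834_at, read 6996, 6555 and 6072 in the high corn oil rats, against 8803, 6507 and 5578 in the low corn oil rats, and the low values enclosed the high ones, with a difference of -0.07 ± 0.19 (SE, limma). This difference was -0.11 at the high and 0.17 at the low spike-in level. For U82612cds_g_at the values were 1069.5, 688 and 629 in the high corn oil rats, against 1556, 873 and 984 in the low corn oil rats, which overlapped. The dimmer U82612cds_at read 170.3, 225 and 109.6 in the high corn oil rats, against 989, 753 and 499 in the low corn oil rats. Its diets did not overlap, and its difference was -1.46 ± 0.35 (SE, limma). That value was -0.78 with an added constant 4 times as large and -0.89 with high-diet rat 3 moved to the low diet. Its mean of 168 under the high diet is below the minimum of 343 set on the mean over all arrays, so it entered the test through its low corn oil values.

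Both Fn1 probe sets below that minimum are given as values. M28259cds_at read 28.0, 9.8 and 55.6 in the high corn oil rats, against 237, 175.5 and 226 in the low corn oil rats, again without overlap. X05831cds_at was below 0 on all 6 arrays, from -242 to -8.6. The dim probe sets and the bright one therefore differ in what they show for the same gene, and detection calls were not used here.

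Eln (J04035_at) varied more among rats than between diets. It read 1268, 959 and 315 in the high corn oil rats, against 808, 756 and 1157 in the low corn oil rats. High-diet rats 1 and 3 were the highest and the lowest of all 6. The difference was -0.21 ± 0.43 (SE, limma), and 0.26 without high-diet rat 3. It was 0.60 at the high and -0.86 at the low spike-in level.

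**Figure D2:**
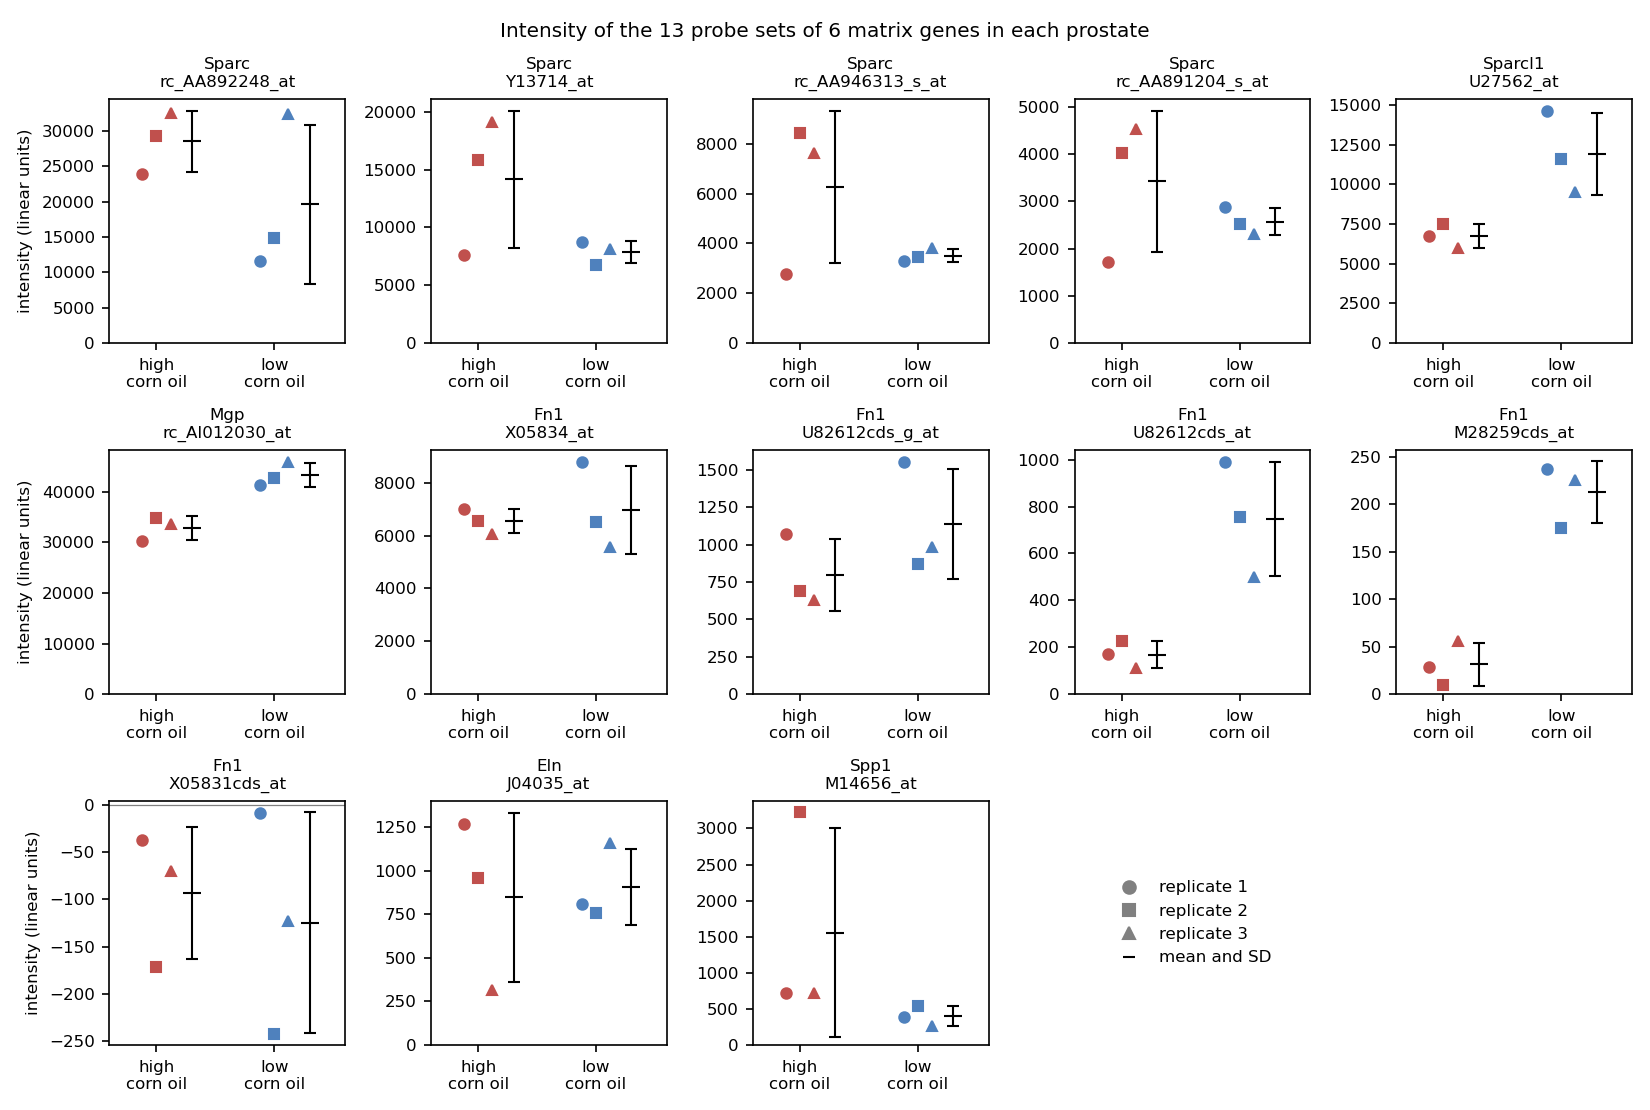
Intensity in linear units (vertical axes, each panel with its own scale) of the 13 probe sets in the 3 high and the 3 low corn oil rats, with symbols for replicates and black bars for the mean and SD. Sparcl1, Mgp, U82612cds_at and M28259cds_at of Fn1 lie lower in every high corn oil rat, and Spp1 lies higher in every one.

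Of the 13 probe sets, 11 passed the filter and were tested. In 4 of these 11 the diets did not overlap, 3 lower (Sparcl1, Mgp and U82612cds_at of Fn1) and 1 higher (Spp1). Over all 5244 tested probe sets 15.5% did not overlap, 6.71% lower and 8.83% higher. Limma called 0 of the 5244 at an adjusted p under 0.05, which is 0% of them, while 522 (9.95%) had an unadjusted p under 0.05, among them the same 4 member probe sets. The adjusted p of the 11 ran from 0.462 to 0.898 in limma. The median difference of the 11 was -0.07, against 0.03 over all tested probe sets. Since the genes were listed with these results known, nothing is read from their share.

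**Figure D3:**
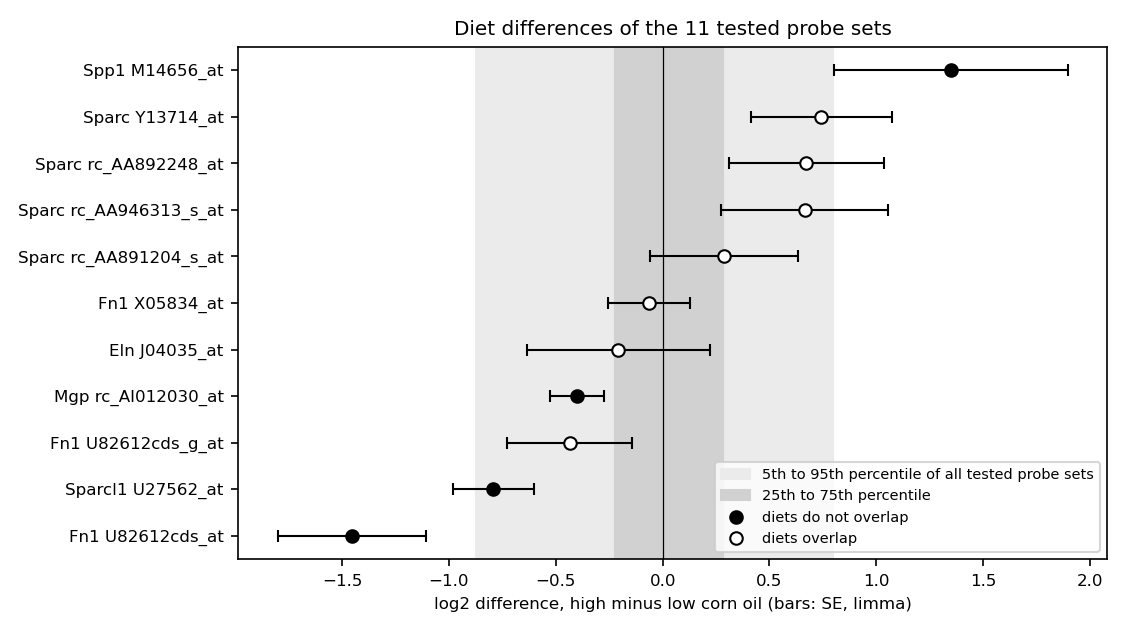
Log2 difference, high minus low corn oil, with its SE from limma (horizontal axis) for the 11 tested probe sets, with grey bands for the middle of all 5244 tested probe sets. Fn1 U82612cds_at lies below the 5th percentile of -0.87 and Spp1 above the 95th percentile of 0.80, and all others lie between.

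Other genes of the same matrix system were examined in lists chosen with earlier results of these data known, taking for each gene the tested probe set with the highest mean. None of the genes in these lists passed the test. Of 26 matricellular genes 4 were tested, and 3 were lower under the high diet. Fstl1, a secreted member of the SPARC family, read 4953, 5174 and 3719.6 in the high corn oil rats, against 6911, 5782 and 6565 in the low corn oil rats. In this probe set, rc_AA849769_g_at, the diets did not overlap, and the difference was -0.47 ± 0.17 (SE, limma). Its other tested probe set, rc_AA849769_at, differed by -0.41 ± 0.29 and its diets overlapped, at 1882, 2729 and 1763 in the high corn oil rats, against 3322, 1860 and 3600 in the low corn oil rats. Tenascin C (Tnc), named here after its values were seen, read 693, 2227 and 2662.5 in the high corn oil rats, against 812, 488 and 1038 in the low corn oil rats. In this probe set, U09361_s_at, high-diet rats 2 and 3 were above all others and high-diet rat 1 was not, as in 3 of the Sparc probe sets. Pbsn was low in those same 2 rats. The other Tnc probe sets were below the filter. Of them, U15550_at was lowest in these 2 rats, at 231.5, 130.6 and -9.6 in the high corn oil rats, against 195.5, 384 and 351.8 in the low corn oil rats. U09401_s_at was below 0 on every array. The remaining genes, the proteoglycan gene Spock2 and the activin-binding Fst, differed by -0.32 ± 0.46 and -1.26 ± 0.74, and Fst was at 48.9 in high-diet rat 3.

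Of 5 tested elastic fibre and crosslinking genes 4 were below 0, with a median of -0.25. Over all 3162 tested genes the median was 0.05, and 44.2% were below 0. Fbln5 and Ltbp1 lay within their SE of 0, at -0.23 ± 0.25 and -0.25 ± 0.28 (SE, limma). Efemp1 differed by 0.01 ± 0.25 in its brighter probe set and by 0.69 ± 0.32 in its dimmer one, and Lox is given at the end. Loxl1, which crosslinks elastin, read 1748, 2062 and 1639 in the high corn oil rats, against 4971, 2106 and 2767 in the low corn oil rats. In this probe set, rc_AA800844_s_at, the diets did not overlap, but 2062 in high-diet rat 2 lay next to 2106 in low-diet rat 2, and the difference was -0.72 ± 0.30 (SE, limma). In the other tested Loxl1 probe set, rc_AA859805_at, the diets overlapped, at 731, 647 and 888 in the high corn oil rats, against 1979, 870 and 784 in the low corn oil rats (-0.49 ± 0.35). Of 5 tested basement membrane and other matrix glycoproteins, 2 were below 0, with a median of 0.01. The proteoglycan agrin (Agrn) was the one gene there whose diets did not overlap, at 0.27 ± 0.14, but they did in its dimmer probe set, at 0.31 ± 0.22.

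Receptors of these proteins were split. Of 9 tested genes 5 were below 0, with a median of -0.05. Cd44, a hyaluronan receptor that also binds osteopontin, read 483.5, 453 and 515 in the high corn oil rats, against 912, 998 and 1008 in the low corn oil rats. No value of one diet came near the other in this probe set, M61875_s_at, and the difference was -0.82 ± 0.22 (SE, limma). The other tested Cd44 probe set, A30543cds_s_at, overlapped between the diets, at 626, 7.6 and 674 in the high corn oil rats, against 418, 568 and 1183 in the low corn oil rats (-0.80 ± 0.68). Itgav, the integrin αv subunit of osteopontin and vitronectin receptors, read 365, 1225 and 798 in the high corn oil rats, against 300.6, 351 and 49.5 in the low corn oil rats. Its difference was 1.28 ± 0.51 at a dim signal, and the lowest high corn oil rat was only just above the low range. Its low-diet mean of 234 is below the minimum of 343, so Itgav entered the test through its high corn oil values. The syndecan gene Sdc1 differed by 0.25 ± 0.13 in its brighter and by -0.22 ± 0.19 in its dimmer probe set, each without overlap, so its probe sets lay on opposite sides of 0.

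Among 12 tested proteases and modifying enzymes 6 were below 0, with a median of -0.03. Ggcx, the carboxylase that activates matrix Gla protein, read 2333, 3769 and 3606 in the high corn oil rats, against 1858, 2206 and 2175 in the low corn oil rats. Its diets did not overlap, in the direction opposite to Mgp, with a difference of 0.58 ± 0.22 (SE, limma), and of 0.37 ± 0.18 in its other probe set, also without overlap. The lysosomal protease gene Ctsb differed by -0.43 ± 0.16 without overlap. Over all tested genes, 6.33% were lower and 9.39% higher without overlap.

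**Figure D4:**
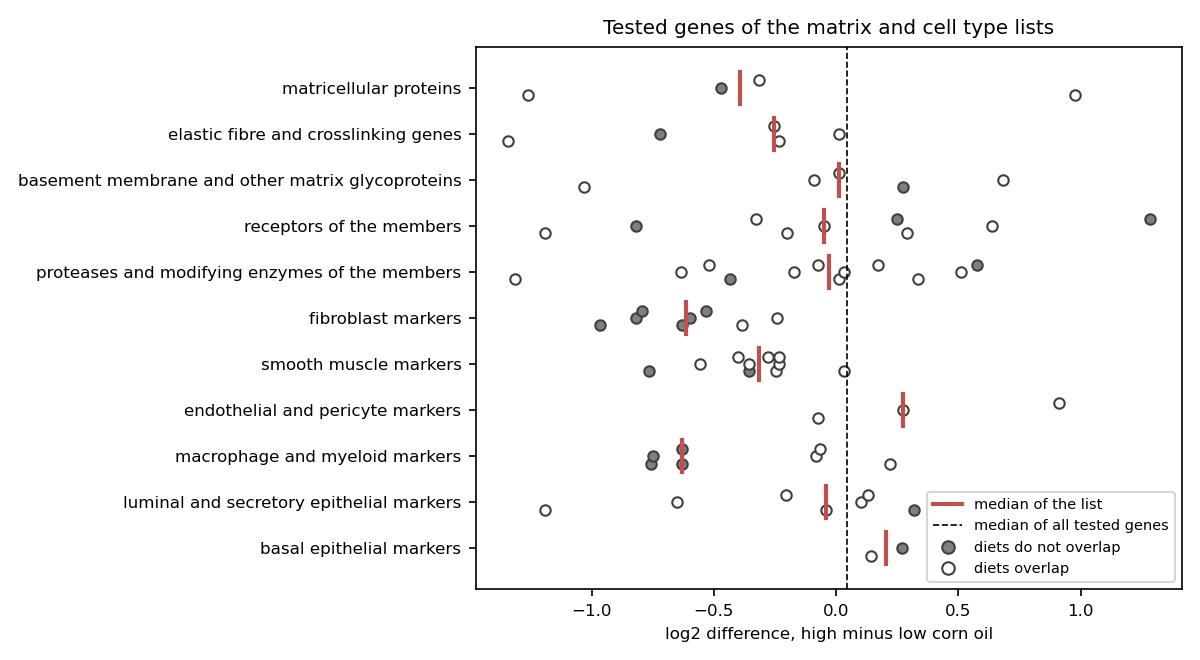
Log2 difference, high minus low corn oil (horizontal axis), of each tested gene in the matrix and cell type lists, filled where the diets do not overlap, with red bars for list medians and a dashed line at 0.05, the median of all tested genes. The fibroblast and macrophage lists have medians of -0.61 and -0.63, while the receptor and protease lists lie near 0.

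Fibroblast markers and most macrophage markers lay on the same side as Sparcl1 and Mgp, but no marker in any cell type list passed the test. All 8 tested fibroblast markers, of 11 listed, were below 0, and their summed intensity ran from 59375 to 80162 under the high diet and from 91824 to 128516 under the low diet. Of 7 tested macrophage and myeloid markers, of 15 listed, 6 were below 0, though Cd14 and Lyz2 only by -0.07 ± 0.36 and -0.08 ± 0.24, and Itgam was at 0.22 ± 0.38. The 8 of this list on the array had sums of 37886 to 60711.5 under the high diet and 56986 to 62745 under the low diet. Of 10 tested smooth muscle markers, of 12 listed, 9 were below 0, with sums of 162459.5 to 220421 under the high diet and 205282.5 to 257493 under the low diet. None of the markers in these 3 lists was at or below 0 on any array. The luminal epithelial list had sums of 153369.9 to 295052 under the high diet and 248569.5 to 274117 under the low diet, and 4 of 7 genes were below 0.

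The mean log2 level of the fibroblast list differed by -0.62 and that of the macrophage list by -0.38, each with separate diets and an exact permutation p of 0.1, the smallest that 3 against 3 allows (0.2 adjusted over the 6 marker lists). The basal list also had separate diets, in the opposite direction, and differed by 0.20 (exact permutation p = 0.1, 0.2 adjusted). Any list with separate diets returns this p of 0.1, so it adds nothing to the separation itself. The lists were also chosen with earlier results of these data known. The smooth muscle list overlapped between the diets and differed by -0.34 (exact permutation p = 0.3). In it high-diet rat 2 was 0.04 above the low corn oil mean. The luminal list differed by -0.22 (exact permutation p = 0.4) and the endothelial and pericyte list by 0.37 (exact permutation p = 0.4), each with overlap. Of 15 endothelial and pericyte markers 7 were on the array and 3 were tested. The 7 on the array, with values below 0 taken as 0, had summed intensities of 2518 to 4780 under the high diet and 1895 to 4393 under the low diet. Icam2, Vwf, Cspg4 and Pdgfrb were at or below 0 on some arrays. Both tested basal epithelial markers, of 4 listed, were above 0, with sums of 12862 to 14104 under the high diet and 11031 to 11927 under the low diet. The part of cell makeup in the Sparcl1, Mgp, Spp1 and Sparc differences was not tested.

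Over the 6 arrays, genes were ranked by how closely their log2 levels followed each of Sparc and Sparcl1, with each gene read from its brightest tested probe set. The 5 genes most like Sparcl1 among 3161 were Cfd, the adipocyte and complement protease adipsin (Pearson r = 0.97), the phosphatase gene Ppp6c (0.97), the ribosomal Rpl17 (0.97), the inhibitory Fc receptor gene Fcgr2b (0.97) and Marcks, a substrate of protein kinase C (0.97). The ranking leaves out the dimmer probe sets. Among those, U82612cds_at of Fn1 had a higher Pearson r with Sparcl1 than the 5 genes (0.99, Spearman rho 1). Both were lower in every high corn oil rat, and their genes were listed with the diet differences known. The other tested Fn1 probe sets, X05834_at and U82612cds_g_at, had r of 0.55 and 0.73 with Sparcl1 (rho 0.31 and 0.60). In all 5 ranked genes the diets did not overlap and the high diet was lower, as for Cfd at 525, 697 and 298 in the high corn oil rats, against 1731, 1114.5 and 881 in the low corn oil rats. Over all tested genes 6.33% were lower without overlap. Ranking by likeness to Sparcl1, whose diets were separate, selects for such genes, so this is no further result. The genes most like rc_AA892248_at of Sparc were the sheddase gene Adam17 (0.99), Kif6 (0.99), the sodium pump regulator Fxyd4 (0.98), Dock8 (0.98) and Tfpi, an inhibitor of coagulation (0.98). In all 5 of these the diets overlapped, and low-diet rat 3 was above the other low corn oil arrays. With 6 points, 47 genes reached an r of 0.9 with Sparcl1 and 55 with Sparc, so these are descriptions of arrays that share diet and spike-in level.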

How the data were processed

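The deposited intensity values, 1 per probe set and array, were used as the authors scaled them. The submitters' processing notes name MAS5 alone, with no settings. MAS5 signals are normally positive, while 18.5% to 23.1% of the deposited values per array are at or below 0, so how they were computed is unknown. Of 8799 probe sets 59 were controls, 7006 carried a single gene, 308 several genes and 1426 none, and 6985 of the single-gene ones took their GRCr8 symbol from the gene identifier. Values below 0 were set to 0 and transformed as log2(value + 156.1), where the constant is the median of all values divided by 4. Fold changes on this scale understate the change of dim genes. Probe sets with a mean of at least 343, the 40th percentile, were tested with limma 3.58.1 in R 4.3.3 (intensity trend, both directions, no covariate, Benjamini-Hochberg over 5244 probe sets, threshold 0.05). The fit was first checked on simulated data with the same spread for every array. That check does not include the split between the arrays. Marker lists were compared with exact two-sided permutation tests.

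The genes and lists were chosen with earlier results of these data known. Named beyond the 6 genes were the 5 most correlated with Sparc and with Sparcl1, and from each matrix list up to 3 genes with the largest difference among those whose diets did not overlap. Spock2, Fst, Tnc, Lox, Efemp1, Fbln5, Ltbp1, Cd14, Lyz2, Itgam, Ibsp, Dspp, Pbsn and the other luminal markers fall outside that rule. They were named after their values were seen. Alternatives changed the pseudocount, filter, normalization, handling of negative values, intensity trend, array weights, blocks, the diet of high-diet rat 3 and the probe set summary, and left out each array.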

Additional observations from a re-analysis of the deposited data

How the results depend on the processing

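Limma called 0 probe sets in all settings except with no filter (9 called) and without high-diet rat 1 (214 called, in a range of 0 to 214 over the fits that left out 1 array). The number at an unadjusted p under 0.05, 522, moved to 75 when high-diet rat 3 was taken as low-diet, 347 with the filter at the 60th percentile, 1534 with array weights, and 253 to 1363 without 1 array. Member probe sets with separate diets numbered 4, and 4 to 8 without 1 array (8 without high-diet rat 1), but 1 when high-diet rat 3 was taken as low-diet. The share over all tested probe sets, 15.5% with all arrays, was not computed for these other settings. Diets separate more easily with fewer arrays, so nothing is read from these counts about the members. The Sparc (rc_AA892248_at) minus Sparcl1 contrast of 1.47 stayed above 0, at 1.00 to 2.05 without 1 array (lowest without low-diet rat 1, highest without low-diet rat 3), 0.83 when high-diet rat 3 was taken as low-diet and 1.11 with the spike-in block.

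Of 183 alternative values for the 11 probe sets, 175 kept direction and side of the threshold, 2 (Sparc, above) passed it and 6 changed sign. When high-diet rat 3 was taken as low-diet these were Sparc rc_AA891204_s_at (-0.16), Fn1 X05834_at (0.028) and Eln (0.55). The others were Fn1 X05834_at with the spike-in block (0.031) and without low-diet rat 1 (0.11, in a range of -0.21 to 0.11 without 1 array), and Eln without high-diet rat 3 (0.26, in a range of -0.53 to 0.26). The cause was not tested. With the replicate block limma called 0 probe sets, with 554 at an unadjusted p under 0.05. The deviations of same-numbered arrays had correlations of -0.05, -0.20 and 0.18, and 2 of 6 arrays correlated best with their own number. With so few arrays per diet these values cannot decide whether same-numbered arrays were paired. Dim probe sets (Spp1, Eln and those of Fn1 other than X05834_at) limit what fold can be read.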

Other observations

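Spp1 and Sparcl1 are close neighbours on rat chromosome 14 in the GRCr8 gene order, separated by 4 protein-coding genes, Mepe, Ibsp, Dmp1 and Dspp, which with Spp1 belong to a family of secreted calcium-binding phosphoproteins. Of these neighbours, Spp1 was higher and Sparcl1 lower under the high diet. Of the 4 genes between them Ibsp and Dspp were on the array, and both were below the filter. Ibsp, bone sialoprotein, read -7.5, -11.6 and 47.6 in the high corn oil rats, against 13.3, -22.3 and -88.3 in the low corn oil rats. Dspp, a dentin protein gene, read 109.9, 396 and 366 in the high corn oil rats, against 249.6, 178.9 and 126.6 in the low corn oil rats.

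Lox, the main lysyl oxidase, had 3 tested probe sets that differed in size. The brightest, S66184_s_at, read 2915, 657 and 421 in the high corn oil rats, against 2646, 2204 and 3393 in the low corn oil rats, a difference of -1.34 ± 0.58 (SE, limma). The others differed by -0.32 ± 0.23 and -0.20 ± 0.21, and in all 3 the diets overlapped. Fst had 2 probe sets, at -1.26 ± 0.74 and -1.09 ± 0.50.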
